A study of Mus musculus with 23 samples.

Results

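Polycomb group genes encode the subunits of the 2 histone-modifying complexes PRC1 and PRC2. The 10 genes described here were taken by symbol from a table of 24506 entries, and all 10 were found: Ezh1, Ezh2, Eed, Suz12 and Jarid2 of PRC2, and Rnf2, Ring1, Bmi1, Cbx2 and Cbx7 of PRC1. The RNA libraries were made from mouse oocytes at the germinal vesicle (GV) stage, zygotes and embryos at the 2-cell stage, with or without Cxxc1, which encodes CFP1, a CpG-binding subunit of the complexes that methylate histone H3 at lysine 4. The 23 libraries formed 8 groups of 3, except that wild-type 2-cell embryos had 2. The oocyte groups were wild type at 3 weeks, wild type at 3 months, Cxxc1 fl/fl; Zp3-Cre at 3 weeks, and Cxxc1 fl/fl with Gdf9-Cre at 3 months, the age being that of the female. Zygotes and 2-cell embryos came either from wild-type females or from Cxxc1 fl/fl; Zp3-Cre females mated with wild-type males, so these embryos lacked maternal Cxxc1 and received an intact paternal copy. The Zp3 promoter drives Cre in growing oocytes and the Gdf9 promoter from an earlier follicle stage, while the somatic cells of the ovary keep the gene. For the embryos no maternal age is labelled, and for no group is it labelled that its libraries are from different animals. Every p-value thus rests on the spread among these samples alone, and that spread may be technical.

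PRC2 places methyl groups on lysine 27 of histone H3 (H3K27me3), through EZH2 or its paralogue EZH1 held by EED and SUZ12. PRC1 ubiquitinates histone H2A through RING1B (gene Rnf2) or RING1A (gene Ring1), and its CBX subunits bind H3K27me3. In mouse oocytes and early embryos the system silences developmental genes, and H3K27me3 laid down in the oocyte acts as a DNA-methylation-independent imprint. Histone marks and proteins were not measured here.

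Levels are given as FPKM, the fragments of a transcript scaled to its length and to all mapped fragments of the library, so levels of different genes can be set side by side. Read depth is unknown from these values. Cxxc1 stood at 24.0 to 41.5 FPKM in wild-type oocytes and zygotes, and at the 2-cell stage wild type had 9.94 and 11.0 FPKM. It was at 0.626 to 1.61 in the deletion libraries, except for deletion 2-cell library 3 at 4.16. That library stood apart from its group: it correlated with the others at 0.942 and 0.936 (log2 values over genes), against 0.983 between them. Its summed granulosa and cumulus markers reached 148 FPKM against 26.2 and 22.9, and its stromal and endothelial markers 147 against 14.1 and 14.1. Results on deletion 2-cell embryos are therefore also given without it. The same 15 granulosa and cumulus markers summed to 91.0 to 168 FPKM in 3-month deletion oocytes and 38.2 to 40.6 in their wild type, with Tnfaip6 at 0 in both groups. All oocyte markers were detected in each GV group, with sums of 6817 to 8885 FPKM. In bulk samples fewer cells of a type and less RNA per cell cannot be told apart.

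The 10 genes spanned a wide range of levels, which the plot of FPKM by library shows. In wild-type 3-week oocytes Ezh2 was the highest member at 186 ± 12.9 FPKM (SD, n = 3), above 97.6% of the 13776 genes tested. Its paralogue Ezh1 was at 24.5 ± 0.706 FPKM (n = 3). Cbx2, Eed, Bmi1, Suz12 and Rnf2 had group means between 45.1 and 86.9 FPKM in the same oocytes, and Jarid2 one of 30.1. Cbx7 at 2.15 ± 0.101 FPKM and Ring1 at 1.29 ± 0.0589 FPKM (n = 3 each) were near the filter of 1 FPKM. Ring1 reached 1 FPKM in 11 of the 23 libraries and Cbx7 in 20, while the other members did so in all 23. Between the lowest and the highest group mean Ezh1 varied 1.87-fold, Ezh2 7.08-fold, Bmi1 6.22-fold and Suz12 5.50-fold.

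**Figure D1:**
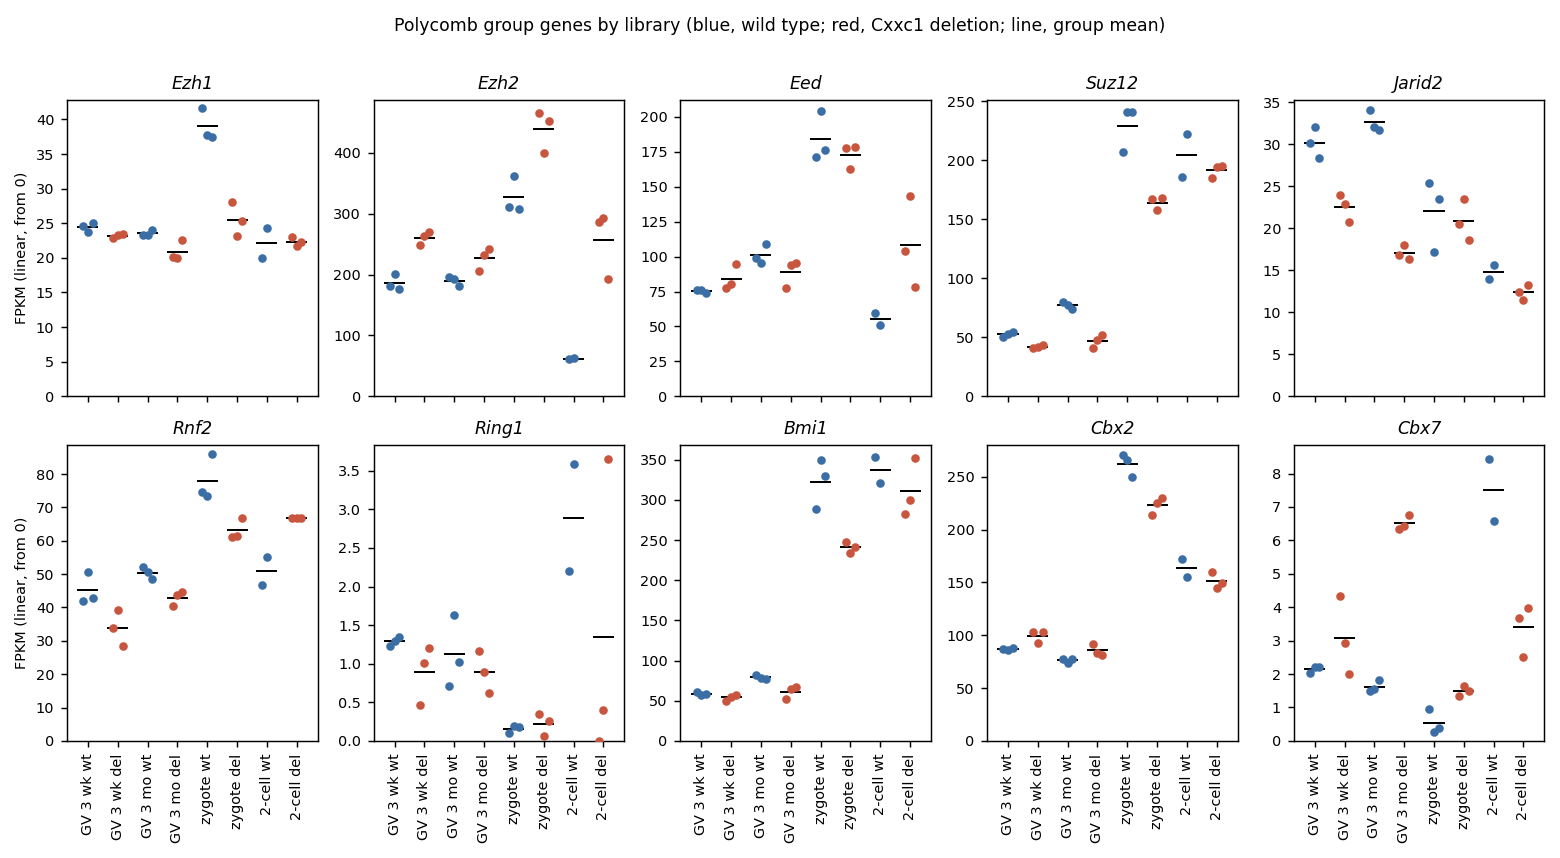
FPKM of the 10 Polycomb group genes in each library (points, side by side by library within a group), with the group mean as a line, on linear axes from 0 in each panel; blue is wild type and red Cxxc1 deletion. Wild-type 2-cell embryos lie at 60.8 and 63.4 FPKM for Ezh2, below every other library, while Bmi1, Suz12 and Cbx2 are higher in zygotes and 2-cell embryos than in oocytes in both genotypes.

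Ordering the groups by mean level separated the members further. Ezh2 was highest in deletion zygotes at 439.5 ± 34.7 FPKM, then in wild-type zygotes at 327 ± 30.8, and lowest in wild-type 2-cell embryos at 62.1 ± 1.83 (n = 2). Each of these 3 groups was separate from its neighbour in the order. Ezh1 was highest in wild-type zygotes at 39.0 ± 2.33 FPKM, and the other 7 groups, with means of 20.9 to 25.5 FPKM, each overlapped the next in the order. Bmi1 was highest in wild-type 2-cell embryos at 337 ± 23.1 FPKM (n = 2), overlapping wild-type zygotes at 322 ± 31.4 (n = 3). Jarid2 was highest in 3-month wild-type oocytes at 32.6 ± 1.28 FPKM and lowest in deletion 2-cell embryos at 12.4 ± 0.903. Cbx7 had its highest means in wild-type 2-cell embryos, 7.51 ± 1.32 FPKM (n = 2), and in 3-month deletion oocytes, 6.52 ± 0.219 (n = 3), which overlapped.

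The promoters of 3 PRC2 genes are shown because the results below turn on Ezh2 against its paralogue Ezh1 and its partner Suz12. Each is the RefSeq window from 250 bases before to 50 bases after the transcription start in build GRCm38.p6, 5′ to 3′ on the gene's strand, with CG dinucleotides, the pair that the CXXC domain of CFP1 binds when unmethylated, in capitals. Ezh2 lies at chr6:47594981-47595280 (minus strand), Ezh1 at chr11:101226414-101226713 (minus strand) and Suz12 at chr11:79992856-79993155 (plus strand).
Ezh2: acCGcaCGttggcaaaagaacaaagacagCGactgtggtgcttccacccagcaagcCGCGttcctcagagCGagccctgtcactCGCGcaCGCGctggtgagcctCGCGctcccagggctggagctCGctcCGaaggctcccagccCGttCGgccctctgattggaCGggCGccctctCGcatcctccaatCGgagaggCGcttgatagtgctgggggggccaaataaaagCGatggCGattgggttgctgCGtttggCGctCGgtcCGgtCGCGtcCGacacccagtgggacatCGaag
Ezh1: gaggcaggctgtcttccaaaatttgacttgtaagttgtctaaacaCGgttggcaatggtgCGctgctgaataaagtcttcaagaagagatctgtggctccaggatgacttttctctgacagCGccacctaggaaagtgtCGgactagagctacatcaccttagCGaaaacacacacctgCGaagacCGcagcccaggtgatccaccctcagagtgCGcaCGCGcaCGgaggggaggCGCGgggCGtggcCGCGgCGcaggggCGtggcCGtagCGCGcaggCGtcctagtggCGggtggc
Suz12: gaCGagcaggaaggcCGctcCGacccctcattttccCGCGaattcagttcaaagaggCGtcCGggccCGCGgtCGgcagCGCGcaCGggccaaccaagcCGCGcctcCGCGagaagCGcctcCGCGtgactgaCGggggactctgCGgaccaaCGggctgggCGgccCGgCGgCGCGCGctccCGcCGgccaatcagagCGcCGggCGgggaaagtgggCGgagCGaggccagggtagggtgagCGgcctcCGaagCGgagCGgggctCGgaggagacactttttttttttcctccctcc
The motif searched was CG, which reads the same on both strands. These windows of 300 bases hold 31 CG pairs for Ezh2, 23 for Ezh1 and 41 for Suz12. Of all 32851 promoter windows, 10.6%, 21.5% and 3.46% hold at least as many, and the median window holds 7. Among the 9 members with a window in the table the count ran from 17 in Eed to 41 in Suz12. A count of CG pairs says nothing on whether CFP1 is bound.

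The deletion was compared with wild type at each stage with limma on log2(FPKM + 1), and a gene was called at an adjusted p under 0.05 over all 13776 genes. All 10 members passed the filter on low values. FPKM is relative to the library, and scaling the libraries another way shifted the log2 changes of the genes. Shifts were taken gene by gene, and their median over all genes is given for 3-week oocytes, 3-month oocytes, zygotes and 2-cell embryos in turn. It was -0.10, -0.22, -0.45 and -0.24 on the log2 scale with median-of-ratios scaling. With quantile normalization it was -0.08, -0.20, -0.37 and 0.05. Each direction below was read under both, and the plot of deletion effects marks the values under median-of-ratios scaling.

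**Figure D2:**
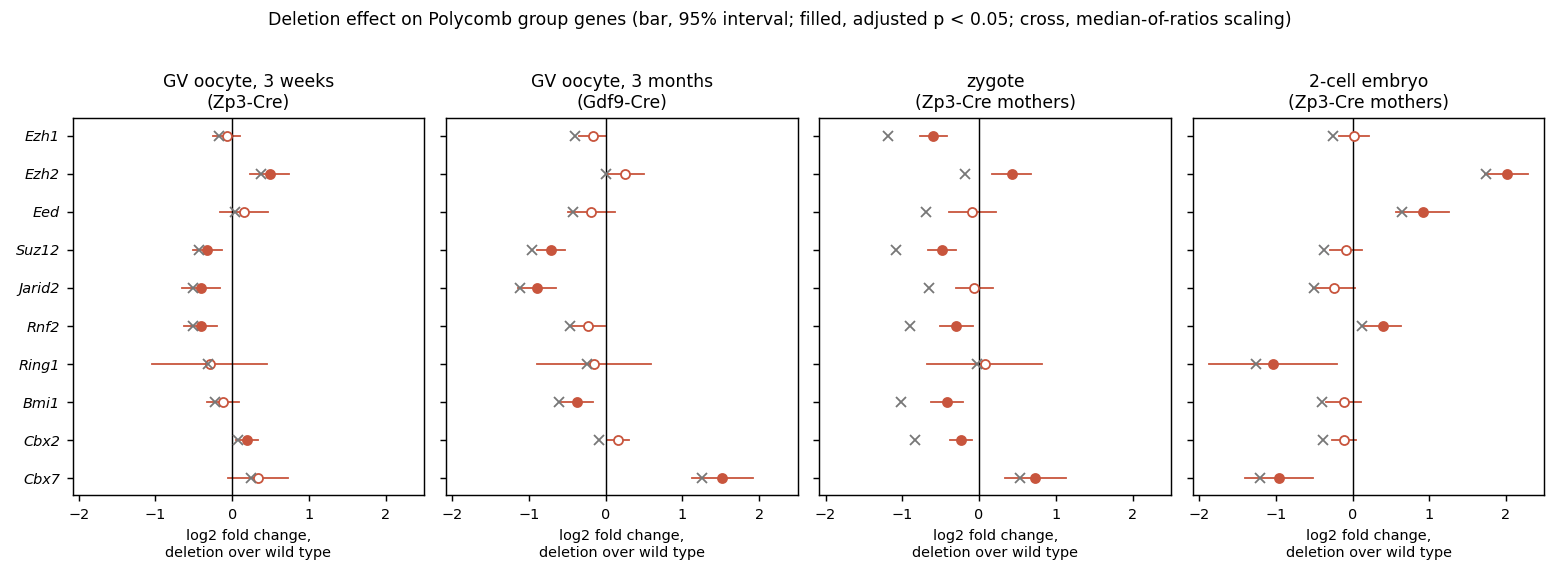
Log2 fold changes of the 10 genes, deletion over wild type, at the 4 stages (circles, with 95% intervals; filled where the adjusted p is under 0.05), with crosses for the same value after median-of-ratios scaling. Suz12 and Jarid2 lie below 0 in both oocyte models with either scaling and Ezh2 lies at 2.01 in 2-cell embryos, whereas Ezh2 in zygotes is at 0.43 and moves to -0.18 with median-of-ratios scaling.

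In 3-week oocytes deleted with Zp3-Cre, Ezh2 rose while Suz12 and Jarid2 of the same complex fell, and Rnf2 of PRC1 fell. Called members numbered 5, with 2 higher and 3 lower. Over all genes tested 18.3% were called higher and 11.3% lower, and the median log2 change was -0.10 over the members and 0.09 over all genes. Of all calls 61.9% were higher, which became 45.4% with median-of-ratios scaling and 48.2% with quantile normalization.

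Ezh2, the main methyltransferase, had 182, 201 and 176 FPKM in wild-type and 249.5, 264 and 269 FPKM in deletion oocytes. The 3 deletion libraries were above the 3 wild-type libraries, and the log2 fold change was 0.49 ± 0.12 (SE; limma adjusted p = 0.00485). With median-of-ratios scaling it was 0.37 and no longer called (adjusted p = 0.0776). Suz12, which the enzyme needs for its stability, had 50.1, 53.0 and 54.3 FPKM in wild-type and 40.6, 41.5 and 43.2 in deletion oocytes, without overlap. It fell by 0.32 ± 0.09 (SE) on the log2 scale (adjusted p = 0.00886). Jarid2, an accessory subunit that aids recruitment to chromatin, fell from 30.1, 32.0 and 28.3 to 24.0, 22.9 and 20.7 FPKM without overlap, a log2 change of -0.40 ± 0.12 (adjusted p = 0.0131). Its call was lost without wild-type library 2 (adjusted p = 0.0577) or without deletion library 3 (0.0625). Eed, the subunit that binds H3K27me3, was at 73.9 to 76.5 FPKM in wild-type and 77.8 to 94.7 in deletion oocytes, without overlap, and had a change of 0.15, with a 95% interval of -0.16 to 0.46.

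Rnf2, the main ubiquitin ligase of PRC1, had 41.9, 50.5 and 42.9 FPKM in wild-type and 33.8, 39.3 and 28.5 FPKM in deletion oocytes of 3-week females. Its groups did not overlap, and it fell by 0.41 ± 0.10 (SE) on the log2 scale (limma adjusted p = 0.00502), a call lost with only the groups compared (0.0574). Cbx2, a chromodomain subunit, was called higher by 0.19 (adjusted p = 0.0404), a call lost with either other scaling (adjusted p = 0.514 and 0.241) and without any 1 of 7 libraries (5 of the 6 compared and 2 of the 3-month wild type). The annotated lncRNA Gm35829 overlaps Cbx2. Bmi1, Ring1 and Cbx7 were not called. In deletion oocytes of this age the oocyte markers summed to 6817 to 7530 FPKM against 8790 to 8885 in wild type, and the granulosa and cumulus markers to 62.8 to 74.9 against 48.8 to 61.4. For the 2-cell markers the sums were 63.4 to 80.8 against 36.5 to 41.4, and for the epithelial markers 51.3 to 58.9 against 39.3 to 43.2. Of 10 oocyte markers 1 was called higher and 4 lower. Called higher were 1 of 10 granulosa and cumulus markers tested, 3 of 8 of the 2-cell stage and 1 of 5 epithelial markers. Their part in these results was not tested.

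In 3-month oocytes deleted with Gdf9-Cre, Suz12, Jarid2 and Bmi1 fell and Cbx7 rose. These were the 4 calls, 1 higher and 3 lower, where 34.2% of all genes tested were called higher and 15.2% lower. With median-of-ratios scaling and quantile normalization Ezh1 (-0.40 and -0.31) and Rnf2 (-0.47 and -0.44) were also called lower. Eed was called lower with quantile normalization only (-0.39). The median log2 change was -0.18 over the members and 0.20 over all genes, and 69.2% of all calls were higher (48.3% and 46.6% with the other scalings). Suz12 had 79.6, 77.5 and 73.8 FPKM in wild-type and 40.5, 47.6 and 51.9 FPKM in deletion oocytes. The groups were well apart, with a log2 change of -0.72 ± 0.09 (SE; adjusted p = 2.16e-06). Jarid2 went from 34.1, 32.1 and 31.7 to 16.8, 18.1 and 16.3 FPKM, a log2 change of -0.90 ± 0.12 (adjusted p = 4.51e-06), again without overlap.

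Cbx7, another H3K27me3-binding chromodomain subunit, had 1.5, 1.56 and 1.81 FPKM in wild-type and 6.35, 6.44 and 6.77 FPKM in 3-month deletion oocytes. The deletion libraries were close together and far above wild type, and the log2 change was 1.52 ± 0.19 (SE; limma adjusted p = 2.65e-06), 1.26 and 1.12 with the other scalings. Apobec3 overlaps Cbx7 in the annotation. Without a stated strand, reads from the stretch shared by the pair cannot be told apart, and its size was not examined. Bmi1, the PCGF subunit of canonical PRC1, was at 82.2, 77.9 and 76.7 FPKM against 51.8, 64.1 and 67.6, and fell by 0.37 ± 0.10 (SE) on the log2 scale (adjusted p = 0.00448). Ezh2 had 3 deletion libraries (207, 232 and 242 FPKM) above the wild-type libraries (196, 193 and 182), but its change of 0.25 was not called (adjusted p = 0.0917). With median-of-ratios scaling the change of Ezh2 was 0.0049 (adjusted p = 0.997) and with quantile normalization 0.13 (0.335), whereas without deletion 2-cell library 3, which enters through the shared spread, 0.25 was called (0.0127). The oocyte markers summed to 7437 to 7673 FPKM in these oocytes against 8335 to 8537 in wild type. The 5 epithelial markers summed to 85.4 to 100.3 FPKM against 52.5 to 54.3, and the 2-cell markers to 83.0 to 136 against 36.3 to 47.5. Of the 10 oocyte markers 4 were called higher and 4 lower, and of the 5 epithelial markers 1 was called higher. Of the 10 granulosa and cumulus markers tested and of the 8 of the 2-cell stage, 6 each were called higher, and the part of these lists in the Cbx7, Suz12 and Jarid2 results was not tested.

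In deletion zygotes 7 members were called, 2 higher and 5 lower: Ezh2 and Cbx7 rose, the former with a turn below 0 under median-of-ratios scaling, and Ezh1, Suz12, Rnf2, Bmi1 and Cbx2 fell. Of all genes tested 35.3% were called higher and 11.4% lower, and the medians were -0.16 over the members and 0.22 over all genes. Higher calls made up 75.6% of all calls, against 41.1% with median-of-ratios scaling and 44.6% with quantile normalization. Jarid2 was not called at -0.06, but was called lower with these scalings (-0.65 and -0.41). Eed was called lower with median-of-ratios scaling only (-0.69). Ezh1, the paralogue with weaker enzyme activity, had 41.7, 37.8 and 37.5 FPKM in wild-type and 28.1, 23.1 and 25.3 FPKM in deletion zygotes. The groups did not overlap, and the log2 change was -0.60 ± 0.08 (SE; adjusted p = 5.81e-06). Ezh2 had 311, 363 and 308 FPKM in wild-type and 466, 400 and 452 in deletion zygotes, again without overlap. Its log2 change of 0.43 ± 0.12 (SE; adjusted p = 0.00623) became 0.53 with quantile normalization but -0.18 with median-of-ratios scaling (adjusted p = 0.358).

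Suz12 had 207, 241 and 241 FPKM in wild-type and 167, 158 and 168 FPKM in deletion zygotes. It fell by 0.48 ± 0.09 (SE) on the log2 scale (limma adjusted p = 0.000131). Bmi1 fell from 288, 349.6 and 329.7 to 248, 234 and 241 FPKM, a log2 change of -0.42 ± 0.10 (adjusted p = 0.00177). Cbx2 fell from 270.5, 266 and 249.6 to 214, 226 and 230.2 FPKM, by 0.23 on the log2 scale (adjusted p = 0.00876). For each of these genes every deletion library was below every wild-type library. Rnf2 was called lower by 0.30 (adjusted p = 0.0215), a call lost without wild-type library 3 (adjusted p = 0.115) or without deletion library 1 or 2 (0.0668 and 0.0627). Cbx7 had 0.961, 0.257 and 0.373 FPKM in wild-type and 1.36, 1.65 and 1.48 in deletion zygotes, without overlap, a log2 change of 0.73 ± 0.19 (adjusted p = 0.00324). With quantile normalization that change was 0.47 (adjusted p = 0.0528). The 10 oocyte markers summed to 4934 to 5640 FPKM in deletion zygotes against 3939 to 4385 in their wild type. For 5 epithelial markers the sums were 115 to 123 against 50.8 to 65.8. Of the 10 oocyte markers 8 were called higher and 1 lower, and of the 5 epithelial markers 1 was called higher. The granulosa and cumulus markers summed to 32.3 to 37.3 FPKM against 22.1 to 25.7, and the 2-cell markers to 25.6 to 33.15 against 8.18 to 14.9. Stromal and endothelial markers went the other way, with 23.9 to 25.6 against 34.5 to 40.6. Called higher were 3 of 10 granulosa and cumulus markers tested and 3 of 8 of the 2-cell stage. The part of these lists in the zygote results was not tested.

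In deletion 2-cell embryos Ezh2 stood out among the members. Wild-type embryos had 60.8 and 63.4 FPKM, and embryos from deletion mothers had 286, 292 and 193 FPKM. Each deletion library held more than 3 times the wild-type level, and the log2 change was 2.01 ± 0.13 (SE; limma adjusted p = 1.2e-10). It was 1.74 and 1.60 with the other scalings, and 2.2 without deletion library 3 (adjusted p = 5.33e-13). The lncRNA F830010H11Rik overlaps Ezh2 in the annotation. Without a stated strand, reads from the shared stretch cannot be told apart, and the size of that stretch was not examined.

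Eed moved with Ezh2 in the 2-cell comparison. It had 59.9 and 51.3 FPKM in wild-type and 104, 143 and 78.4 FPKM in deletion embryos, without overlap, and rose by 0.92 ± 0.17 (SE) on the log2 scale (limma adjusted p = 6.93e-05). Without deletion library 3, the lowest of its group, the rise was 1.13. Suz12 had 186 and 223 FPKM in wild-type and 185, 195 and 195 FPKM in deletion embryos, overlapping, with a log2 change of -0.09 and a 95% interval of -0.29 to 0.12. With the other scalings Suz12 was called lower, by 0.37 and 0.54 on the log2 scale (adjusted p = 0.00807 and 0.000231). Ezh1 had a change of 0.02, with an interval of -0.18 to 0.21, and with median-of-ratios scaling was called lower at -0.25 (adjusted p = 0.0458).

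Among PRC1 genes in 2-cell embryos, Cbx7 had 8.45 and 6.58 FPKM in wild-type embryos against 3.68, 2.51 and 3.98 FPKM in those of deletion mothers. The groups did not overlap, and it fell by 0.96 ± 0.21 (SE) on the log2 scale (limma adjusted p = 0.000491), or by 1.06 without deletion library 3. Rnf2 had 46.7 and 55.1 FPKM in wild-type embryos against 66.8, 66.9 and 66.9 FPKM after deletion. It rose by 0.39 ± 0.11 (SE) on the log2 scale (adjusted p = 0.00515), but the call was lost without wild-type library 1 (adjusted p = 0.101) and with either other scaling. Ring1, the paralogous ligase gene, had 2.2 and 3.59 FPKM in wild-type and 0.399 and 3.65 in deletion libraries 2 and 3, and was listed at 0 in deletion library 1. It was called lower (log2 change -1.04, adjusted p = 0.0279) although the groups overlapped, and the call was lost without wild-type library 2 (adjusted p = 0.202), deletion library 1 (0.169) or deletion library 2 (0.0994), and with only the groups compared (0.259). That call was also lost with no filter, and with a minimum of 5 FPKM Ring1 was not tested. Without deletion library 3 its change was -1.70. In all 5 members were called, 3 higher and 2 lower, where 37.1% of all genes tested were called higher and 29.4% lower. With median-of-ratios scaling it was 2 higher and 7 lower and with quantile normalization 2 higher and 5 lower, so the balance turned. Bmi1 (-0.40 and -0.64) and Cbx2 (-0.39 and -0.51) were among the members called lower with both. Without deletion library 3 the count was also 3 higher and 2 lower. The medians were -0.10 over the members and 0.16 over all genes, and 55.8% of all calls were higher (46.0% and 56.1% with the other scalings).

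Markers of developmental stage moved with the 2-cell results. The summed level of the 10 oocyte markers was 4188 to 4657 FPKM in deletion 2-cell embryos, where wild type had 2001 and 1682. None of these was at 0 in every library of a group. The 8 markers of the 2-cell stage summed to 247 and 193 FPKM in wild-type and 53.9 to 58.5 in deletion embryos, and 7 of the 8 were called lower. Their part in the Ezh2, Eed and Cbx7 results was not tested.

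Ratios taken within a library do not change when libraries are scaled by a factor. The ratio of Ezh2 to Ezh1 was 10.9 to 11.5 in deletion oocytes of 3-week females against 7.03 to 8.48 without deletion. In oocytes of 3-month females the deletion libraries had 10.2 to 11.6 against 7.59 to 8.40 in wild type. Deletion zygotes had 16.6 to 17.8 against 7.45 to 9.60, and deletion 2-cell embryos had 12.5, 13.4 and 8.69 against 3.05 and 2.60. At each of the 4 stages every deletion library was above every wild-type library. The ratios of Ezh2 to Suz12 and to Eed, which were chosen after their values were seen, separated the genotypes in the same direction. Ezh2 to Suz12 went from 3.25 to 3.79 in wild-type to 6.15 to 6.37 in deletion 3-week oocytes, and from 2.46 to 2.48 to 4.66 to 5.10 in 3-month oocytes. It went from 1.28 to 1.51 to 2.54 to 2.79 in zygotes, and from 0.327 and 0.285 to 1.55, 1.5 and 0.990 in 2-cell embryos. The ratio of Rnf2 to Ring1 overlapped between the genotypes at each of the 4 stages. Cbx2 to Cbx7 overlapped in 3-week oocytes (23.8 to 51.4 after deletion, 39.3 to 42.7 in wild type). After deletion it was lower in 3-month oocytes (12.05 to 14.5 against 42.7 to 51.9) and zygotes (137 to 158 against 281 to 1032). In 2-cell embryos it was higher (37.45 to 57.6 against 20.35 and 23.6). These ratios are descriptions without a test.

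**Figure D3:**
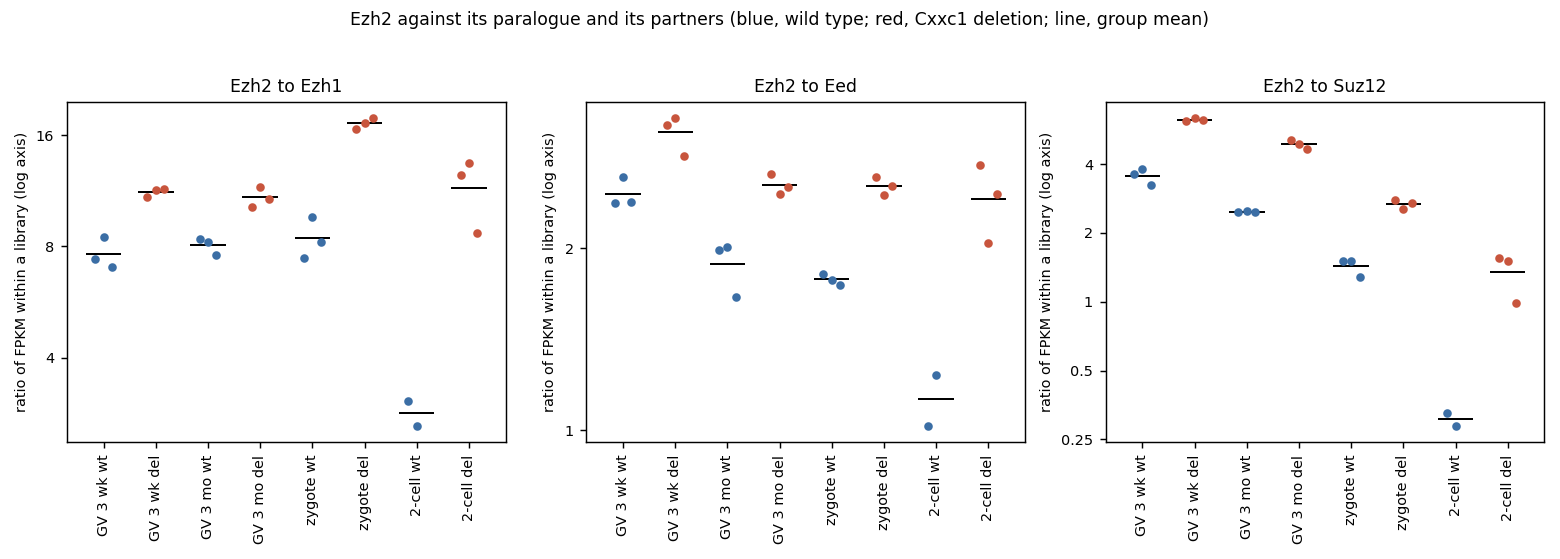
Ratio of Ezh2 FPKM to that of Ezh1, Eed and Suz12 within each library (points), with the group mean as a line, on log axes; blue is wild type and red Cxxc1 deletion. For each ratio and stage the deletion libraries lie above the wild-type libraries, with Ezh2 to Ezh1 at 16.6 to 17.8 in deletion zygotes against 7.45 to 9.60.

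Whether the deletion effect itself differed between settings was tested with interaction terms in the same limma fit. Between the 2-cell stage and the zygote it differed for 6 members, with 5 differences higher and 1 lower, where 21.5% of all genes had a higher and 32.4% a lower difference. The largest were those of Cbx7, at -1.69 (adjusted p = 4.14e-05), and Ezh2, at 1.58 ± 0.18 (SE; adjusted p = 3.63e-07). Eed (1.00), Rnf2 (0.69), Ezh1 (0.61) and Suz12 (0.39) followed, and that of Suz12 became -0.06 with quantile normalization and was not called without wild-type 2-cell library 1 (adjusted p = 0.134). Without deletion 2-cell library 3 the count was 5 higher and 2 lower, as Ring1 joined at -1.77, with Ezh2 at 1.78 and Eed at 1.21. Between the zygote and the 3-week oocyte the effect differed for 2 members, both lower: Ezh1 at -0.52 (adjusted p = 0.00195) and Cbx2 at -0.42 (adjusted p = 0.00227). Of all genes 22.4% had a higher and 7.01% a lower difference there.

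Between the oocyte models the effect differed for 1 member, Cbx7, with a difference of 1.18 ± 0.27 (SE; adjusted p = 0.0169; 0.0635 with quantile normalization), where 3.2% of all genes had a higher and 1.68% a lower difference. The Cre driver and the age of the females changed together between these models, so their parts cannot be told apart. Of all calls among the 3 interactions, in the order given, 39.8%, 76.2% and 65.5% were higher. Median-of-ratios scaling made these 50.5%, 39.5% and 37.2%, and quantile normalization 58.0%, 49.1% and 32.5%.

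From wild-type 3-week oocytes to wild-type zygotes all 10 members were called, 7 higher and 3 lower, where 19.4% of all genes tested were called higher and 50.7% lower. The median log2 change was 0.79 over the members and -0.47 over all genes. These levels are shares of a library, and the amount of RNA per cell was not measured at any stage. Bmi1 rose by 2.43 ± 0.10 (SE) on the log2 scale, from 57.4 to 60.7 FPKM to 288 to 349.6 (adjusted p = 2.9e-14). Suz12 rose by 2.11 ± 0.09, Cbx2 by 1.58 ± 0.07 and Eed by 1.27 ± 0.15. Ezh2, Rnf2 and Ezh1 rose by 0.81, 0.78 and 0.65. Cbx7 (-1.07), Ring1 (-0.99) and Jarid2 (-0.45) were called lower, but Jarid2 turned to 0.42 with median-of-ratios scaling and 0.31 with quantile normalization, both called. Ring1 lost its call with no filter. It also lost it with both scalings (adjusted p = 0.0529 and 0.157), and Cbx7 lost its call with quantile normalization (0.104). The median gene-by-gene shift over all genes was 0.69 and 0.77 under these scalings. The share of higher calls went from 27.7% to 48.0% and 54.0%.

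From wild-type zygotes to wild-type 2-cell embryos, 2 members rose and 6 fell, where 44.5% of all genes tested were called higher and 24% lower. The medians were -0.56 over the members and 0.31 over all genes. Ezh2 fell from 308 to 363 FPKM to 60.8 and 63.4, a log2 change of -2.38 ± 0.13 (SE; limma adjusted p = 4.65e-12). Eed fell by 1.71 ± 0.17 on the log2 scale. Ezh1, Cbx2, Rnf2 and Jarid2 fell by 0.79, 0.68, 0.61 and 0.52. The call of Cbx2 was lost with quantile normalization (-0.18, adjusted p = 0.0590) and that of Jarid2 with only the groups compared (0.0550). Cbx7 rose by 2.49 ± 0.21 and Ring1 by 1.73 ± 0.40. Bmi1 was not called at 0.07, but was called at -0.37 with median-of-ratios scaling and at 0.59 with quantile normalization. Suz12 was not called at -0.17, but was called at -0.61 and at 0.30 with these scalings. The median gene-by-gene shift over all genes was -0.32 and -0.62 under these scalings. The share of higher calls went from 65.0% to 54.2% and 43.4%. In wild-type 2-cell embryos the mean levels of Suz12 and Bmi1 were 204 and 337 FPKM, above the 62.1 FPKM of Ezh2.

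In the deletion line, 6 members rose and 1 fell from 3-week oocyte to zygote, where 21.9% of all genes tested were called higher and 43% lower. The medians were 0.82 over the members and -0.27 over all genes. Bmi1 rose by 2.13, Suz12 by 1.95, Cbx2 by 1.16, Eed by 1.03, Rnf2 by 0.89 and Ezh2 by 0.75 on the log2 scale, and Cbx7 was called lower at -0.67, a call lost with either other scaling (adjusted p = 0.0861 and 0.692). Ezh1 was at 22.9 to 23.5 FPKM in deletion oocytes and 23.1 to 28.1 in deletion zygotes, overlapping, with a change of 0.13 (95% interval -0.05 to 0.30) that was called at 0.52 and 0.58 with the other scalings. Jarid2 was not called at -0.11, and was called higher with either other scaling (0.28 and 0.39). The median gene-by-gene shift over all genes was 0.34 and 0.48 under these scalings. The share of higher calls went from 33.7% to 48.2% and 56.3%.

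From deletion zygotes to deletion 2-cell embryos, 3 members rose and 4 fell, where 32.7% of all genes tested were called higher and 17.3% lower. The medians were -0.05 over the members and 0.22 over all genes. Ezh2 fell by 0.79 ± 0.12 (SE) on the log2 scale, from 400 to 466 FPKM to 193 to 292 (limma adjusted p = 2.16e-05). Eed fell by 0.71 ± 0.15, Jarid2 by 0.70 ± 0.12 and Cbx2 by 0.56 ± 0.07. Cbx7 rose by 0.80 and Bmi1 by 0.36, the latter losing its call with median-of-ratios scaling (0.25, adjusted p = 0.0504) and with array weights (0.0548). Suz12 was called higher by 0.22, a call lost with either other scaling and without any 1 of the libraries of these groups except deletion 2-cell library 1. Without deletion 2-cell library 3 the count was 2 higher and 4 lower, with Ezh2 at -0.60 and Eed at -0.50. The share of higher calls over all genes went from 65.5% to 58.9% and 48.8% with the other scalings. The plot of stage changes sets both genotypes side by side, and the test of their difference is the interaction term above.

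**Figure D4:**
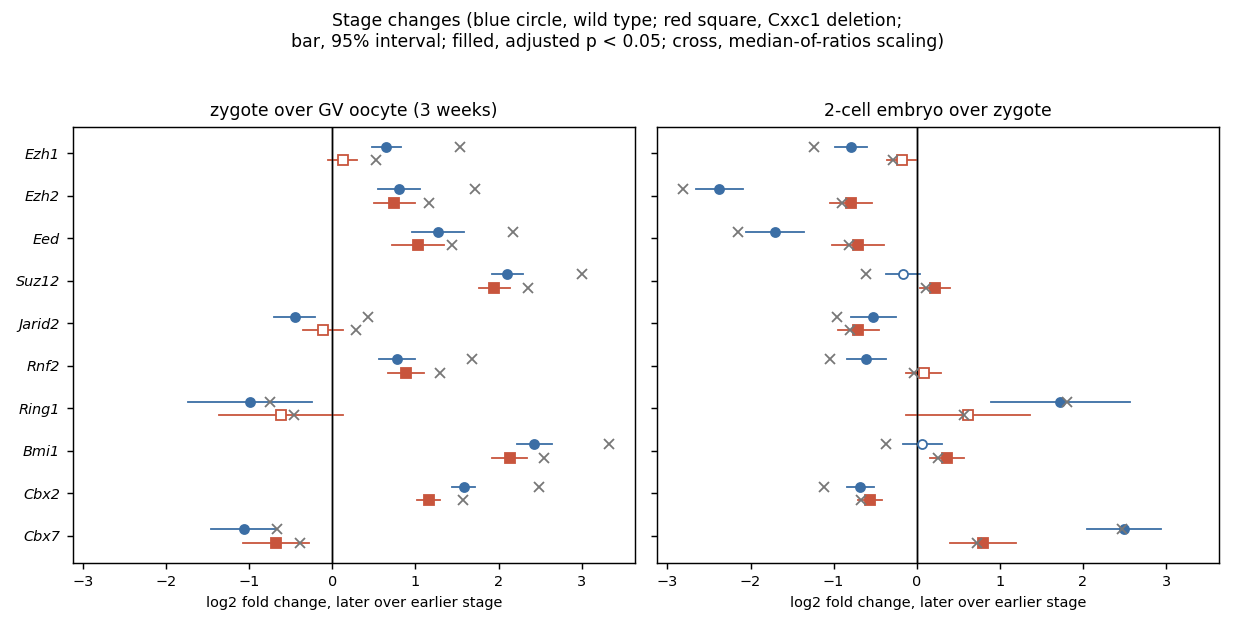
Log2 fold changes of the 10 genes from the 3-week GV oocyte to the zygote and from the zygote to the 2-cell embryo, for wild type (blue circles) and Cxxc1 deletion (red squares), with 95% intervals; filled symbols have an adjusted p under 0.05 and crosses give the value after median-of-ratios scaling. From zygote to 2-cell embryo Ezh2 lies at -2.38 in wild type and -0.79 in the deletion, and Cbx7 at 2.49 and 0.80; Jarid2 from oocyte to zygote lies below 0 with the deposited scaling and above it with median-of-ratios scaling.

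Between wild-type oocytes of 3-month and 3-week females 2 members were called, both higher, where 2.25% of all genes tested were called higher and 1.7% lower. Suz12 rose by 0.54 ± 0.09 (SE) on the log2 scale, from 50.1, 53.0 and 54.3 FPKM at 3 weeks to 79.6, 77.5 and 73.8 at 3 months (limma adjusted p = 0.000857). Bmi1 was at 60.7, 57.4 and 58.5 FPKM at 3 weeks and 82.2, 77.9 and 76.7 at 3 months. It rose by 0.42 ± 0.10 (adjusted p = 0.0216), a call lost without any 1 of the 6 libraries (adjusted p = 0.0547 to 0.103). Eed was also higher in all 3 older libraries (98.7, 95.7 and 109 FPKM against 76.4, 76.4 and 73.9) but was not called at 0.41 (adjusted p = 0.138). It was called without deletion 2-cell library 2 or 3 (adjusted p = 0.0369 and 0.0350), with array weights (0.000304) and with only the groups compared (0.00946).

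Of 43 other genes of the pathway, 39 passed the filter. After deletion 9 rose and 8 fell in 3-week oocytes, 16 and 7 in 3-month oocytes, 19 and 5 in zygotes, and 16 and 13 in 2-cell embryos. Over all genes tested, 18.3%, 34.2%, 35.3% and 37.1% were called higher and 11.3%, 15.2%, 11.4% and 29.4% lower in the same order. The 3-month and 2-cell counts lie near those shares. The median log2 changes of the list were 0.10, 0.09, 0.32 and 0.19, where those of all genes were 0.09, 0.20, 0.22 and 0.16. With median-of-ratios scaling these counts became 5 and 8, 5 and 11, 12 and 16, and 11 and 14, so the balance turned in 3-month oocytes and zygotes. With quantile normalization they were 7 and 9, 7 and 13, 13 and 10, and 14 and 13. Without deletion 2-cell library 3 the 2-cell count was 18 and 12.

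Genes of the wider pathway that fell in both oocyte models included AU022751 (listed in current nomenclature as Ezhip, an inhibitor of PRC2 in oocytes), Bcorl1 and Pcgf1, the latter pair belonging to a variant PRC1. AU022751 had 881, 833 and 886 FPKM in wild-type and 447, 384 and 519 in deletion 3-week oocytes, and 868, 853 and 949 against 320.4, 338 and 352 in 3-month oocytes. Its log2 changes were -0.95 ± 0.18 and -1.40 ± 0.18 (SE; limma adjusted p = 0.000567 and 4.35e-06), and it also fell in zygotes, by 1.11. Pcgf1 fell by 0.74 and 1.07 on the log2 scale in the 3-week and 3-month oocytes, and Bcorl1 by 0.79 and 1.08. E2f6, a DNA-binding factor of variant PRC1, rose by 0.73 and 1.72, and its 3-week call was lost under 3 alternatives. Yaf2 (0.62) and Rbbp4 (0.53), a variant PRC1 and a PRC2 core subunit, also rose at 3 weeks. In 3-month oocytes Yy1 (0.82), a zinc-finger factor linked to Polycomb recruitment, and Cbx8 (0.95) rose, the latter with 8 of 31 alternatives ending its call.

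In zygotes Usp16, a deubiquitinase of histone H2A, had 9.59, 7.90 and 10.1 FPKM in wild type and 57.1, 61.1 and 64.4 after deletion. Its log2 change of 2.61 ± 0.08 (SE; limma adjusted p = 3.18e-15) was the largest of the list there, and Scmh1 (2.16) and Pcgf6 (1.94), both PRC1 subunits, followed. Scml2 fell by 1.01 and Phf1, an accessory subunit of PRC2, by 0.80. In 2-cell embryos Skp1a, a subunit of a variant PRC1 and of ubiquitin ligases outside Polycomb, had 76.0 and 79.9 FPKM in wild-type embryos and 972, 1113 and 922 FPKM after deletion, a log2 change of 3.66 ± 0.10 (adjusted p = 2.2e-15). Rbbp7 (2.02) and Phc1 (1.65) also rose. Yy1 had 97.9 and 89.0 FPKM in wild-type and 16.3, 12.8 and 17.7 in deletion 2-cell embryos, and fell by 2.52 ± 0.13 on the log2 scale. Pcgf5 and Bcorl1, of variant PRC1 complexes, fell by 2.30 and 2.12. Without deletion library 3 the changes of Skp1a, Rbbp7 and Phc1 were 3.72, 2.19 and 1.66, and those of Yy1, Pcgf5 and Bcorl1 -2.62, -2.47 and -2.15.

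In the wild-type stage changes of the 39 genes of the wider list, 11 rose and 21 fell from oocyte to zygote. From zygote to 2-cell embryo 18 rose and 12 fell. Of all genes tested 19.4% were called higher and 50.7% lower at the earlier step, and 44.5% and 24% at the later one. The counts of the later step lie near those shares. With median-of-ratios scaling the counts were 19 and 13, and 15 and 16. Scml2 (2.63), the H3K27 demethylase gene Kdm6a (2.10) and Phc2 (2.00) had the largest rises to the zygote, and Skp1a (-2.61), Scmh1 (-2.55) and Auts2 (-2.44) the largest falls. Yy1 (4.58), Pcgf5 (3.59) and Usp16 (3.29) rose most to the 2-cell stage, and Rbbp7 (-3.17), AU022751 (-2.58) and Kdm6b (-2.37) fell most. In the deletion line 14 rose and 16 fell to the zygote, then 16 rose and 13 fell to the 2-cell stage (14 and 14 without deletion 2-cell library 3). Of all genes tested 21.9% were called higher and 43% lower to the zygote in this line, and 32.7% and 17.3% to the 2-cell stage. With median-of-ratios scaling the deletion line had 22 and 11, then 16 and 14, and with quantile normalization 22 and 12, then 15 and 15, so the balance to the zygote turned.

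Genes classically marked by H3K27me3 in other mouse cells gave a mixed picture, and the mark was not measured here. Of 22 such genes 14 passed the filter, which a gene can do through 1 group alone, so the counts describe those 14 only. After deletion 5 rose and 1 fell in 3-week oocytes, 8 and 2 in 3-month oocytes, 5 and 1 in zygotes, and 4 and 5 in 2-cell embryos. The zygote counts were 4 and 3 with either other scaling, and the 2-cell counts 4 and 6 without deletion library 3. Of all genes tested 18.3%, 34.2%, 35.3% and 37.1% were called higher at these stages and 11.3%, 15.2%, 11.4% and 29.4% lower, and the zygote counts are near those shares. Hoxd13, a limb patterning gene, was higher in every deletion library than in every wild-type library of its stage. It was at 0.231 to 0.446 FPKM in wild-type and 6.36 to 12.8 in deletion 3-week oocytes, and at 0.611 to 1.16 against 15.0 to 17.2 in 3-month oocytes. In zygotes it was at 0.486 to 0.683 against 9.26 to 11.5 FPKM, and in 2-cell embryos at 0.727 and 0.721 against 10.6 to 17.7. Its log2 changes of 2.90, 3.26, 2.82 and 3.19 are a description, since 1 wild-type library alone reached 1 FPKM and the gene passed the filter through the deletion libraries. The 2-cell value of Hoxd13 was 3.10 without deletion library 3. Cdkn2a, a cell-cycle inhibitor gene, rose by 2.02 in 3-week oocytes and 2.64 in zygotes. Its levels were also higher in deletion 3-month oocytes (10.4 to 13.9 against 0.452 to 4.01 FPKM) and deletion 2-cell embryos (2.34 to 5.26 against 1.125 and 1.302), without overlap. Lhx2 fell by 1.15, 1.18 and 1.83 on the log2 scale in 3-week oocytes, 3-month oocytes and 2-cell embryos. The marker sums given above for each stage moved with the deletion here as well, and their part was not tested.

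Of 6 genes known for imprinting by maternal H3K27me3, only Smoc1, Gab1 and Jade1 passed the filter. Smoc1 had 0.444, 0.443 and 0.397 FPKM in wild-type and 6.58, 6.55 and 5.91 in deletion 3-week oocytes, and 0.0493 to 0.106 against 2.29 to 6.01 in 3-month oocytes. In zygotes it was listed at 0 in 2 wild-type libraries and at 0.0530 in the other, against 1.65 to 1.96 after deletion, and in 2-cell embryos it was at 0.291 and 0.379 against 1.62 to 3.59. No wild-type library of Smoc1 reached 1 FPKM, so it passed the filter through deletion libraries alone, and its log2 changes of 2.36, 2.06, 1.44 and 1.26 are given as a description without a test. Gab1 was higher in deletion 3-week oocytes (0.65, a call lost under 14 of 30 alternatives) and deletion zygotes (0.91). Among wild-type libraries Gab1 reached 1 FPKM only in 2-cell library 1 (1.81). It therefore passed the filter with the help of deletion libraries, and its changes are likewise a description. Jade1 had 8.84 and 6.14 FPKM in wild-type and 1.04, 0.763 and 2.90 in deletion 2-cell embryos, a log2 change of -1.80. Without deletion 2-cell library 3 the 2-cell changes of Smoc1 and Jade1 were 1.00 and -2.15. Which parental allele these transcripts came from was not measured.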

How the data were processed

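The authors deposited gene-level FPKM values in a single table, whose 23 library columns were matched to samples by title. Named per the submitters' processing notes were SAMtools, Cufflinks 2.2.1, TopHat2 2.0.12 and CASAVA 1.4, with the builds mm10 and mm9. The sources used here do not state which build, annotation or strand setting served the RNA data. FPKM holds no read counts, so depth is unknown and no counting error is given, and reads of near-identical gene copies could be split. Bisulfite data were not analysed here.

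Genes with at least 1 FPKM in at least 2 libraries were kept (13776), log2(FPKM + 1) was taken, and limma 3.58.1 (R 4.3.3) estimated 8 group means from all 23 libraries together (mean-variance trend, 15 residual degrees of freedom, Benjamini-Hochberg adjustment over all genes tested). The log2 scale understates changes of low genes. The pipeline was tested on simulated data. Stage changes start from 3-week oocytes. The 10 genes and all lists were chosen with earlier results of these data known. Of the wider Polycomb list, up to 3 called genes with the largest change in each direction were named per comparison, and of the other lists up to 2, with 1 result not reported here. Promoter sequences are RefSeq's, build GRCm38.p6.

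Alternatives were a pseudocount of 0.1, no filter, a minimum of 5 FPKM, median-of-ratios scaling, quantile normalization, array weights, only the groups compared, a replicate block, and each library left out. A value counted as reversed where its sign changed and it was called in either fit.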

Additional observations from a re-analysis of the deposited data

Results flagged for a closer look

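The results listed here were picked out because the deletion effect on a gene differed between 2 settings by a limma interaction term. All values are differences of log2 fold changes, with an adjusted p under 0.05 over all genes tested.

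Between the 2 oocyte models, the effect on Cbx7 was higher in 3-month than in 3-week oocytes by 1.18. Between zygotes and 3-week oocytes, the effect was lower in zygotes for Cbx2 (-0.42) and Ezh1 (-0.52). Between 2-cell embryos and zygotes, it was higher in 2-cell embryos for Ezh2 (1.58), Eed (1.00), Rnf2 (0.69), Ezh1 (0.61) and Suz12 (0.39), and lower for Cbx7 (-1.69). No group held the 4 libraries needed to test for a single outlying library.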

How the results depend on the processing

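The number of called members stayed within 1.5 times its value in 83 of the counts under settings that kept all libraries, and not in 13. In 3-week oocytes it went from 5 to 3 with median-of-ratios scaling, and to 3 to 5 without 1 library. In 3-month oocytes it went from 4 to 7 with quantile normalization, 8 with array weights and 8 with only the groups compared, and in 2-cell embryos from 5 to 9 with median-of-ratios scaling. For age it went from 2 to 4 with array weights or with only the groups compared, and to 1 to 3 without 1 library. For the difference between oocyte models it went from 1 to 0 with a pseudocount of 0.1, to 3 with median-of-ratios scaling, 2 with quantile normalization, 3 with array weights and 3 with only the groups compared, and to 1 to 2 without 1 library. For the difference between zygotes and 3-week oocytes it went from 2 to 6 with median-of-ratios scaling.

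Signs reversed only with another scaling. With median-of-ratios scaling these were Ezh2 in zygotes (-0.18) and Ezh1 in 2-cell embryos (-0.25) after deletion, Jarid2 from oocyte to zygote in wild type (0.42) and in the deletion (0.28), and Bmi1 from zygote to 2-cell embryo in wild type (-0.37). With quantile normalization these were Jarid2 (0.31 and 0.39), Suz12 from zygote to 2-cell embryo in wild type (0.30), Gab1 there (-0.054), and the difference between 2-cell embryos and zygotes for Suz12 (-0.059) and Cbx2 (-0.29). The cause was not tested. Over all genes, the calls for age (544) became 3246 with array weights, 2482 with only the groups compared and 265 to 849 without 1 library, those for the difference between oocyte models (673) 363 with a pseudocount of 0.1, 3228 with array weights, 2448 with only the groups compared and 358 to 1313 without 1 library, and those from zygote to 2-cell embryo in the deletion (6887) 4052 with only the groups compared. Calls gained without 1 library, beside those in the results, were Cbx7 in 3-week oocytes, Rnf2 and Cbx2 in 3-month oocytes and Jarid2 in 2-cell embryos after deletion. They were also Suz12 from zygote to 2-cell embryo in wild type, and in the deletion Ring1 at both steps and Ezh1 at the later one. Among the differences they were Suz12 and Jarid2 between oocyte models, Jarid2 between zygotes and 3-week oocytes, and Bmi1 between 2-cell embryos and zygotes. Deviations from the group mean correlated at -0.07 to 0.08 between same-numbered libraries of compared groups, and at -0.16 to 0.13 between differently numbered ones. With 2 or 3 libraries in a group this cannot settle whether equal numbers mark paired samples, and the labels do not say. With the replicate block the 3-week count was again 5 and no member call changed. Read depth is unknown, so the precision of low genes such as Ring1 and Cbx7 cannot be stated.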
